A study of Homo sapiens with 12 samples.

Results

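A group of 10 Notch pathway genes was followed by line and state. They are the receptors NOTCH1, NOTCH2 and NOTCH3, the ligands JAG1, JAG2 and DLL1, the HES and HEY family targets HES1, HEY1 and HES4, and the target NRARP. These 10 genes, of 22506 in the count table, were taken by name, and NOTCH3 was included as a reported target of PRKCI and ELF3. NOTCH1 and NRARP lie on chromosome 9, NOTCH2 and HES4 on 1, HES1 on 3, DLL1 on 6, HEY1 on 8, JAG2 on 14, NOTCH3 on 19 and JAG1 on 20. The study sequenced RNA from human lung squamous cell carcinoma lines to ask how tumor-initiating cells (TICs, cells able to seed a tumor) depend on PRKCI, the gene of the atypical protein kinase C iota. The states compared were TICs with PRKCI knockdown, TICs, and parental cells, which the labels call adherent. There were 12 libraries in all, 1 for each state of H1703, of H1299, of CHAGO and of CALU. The 4 lines are the replicates of a state, so each p-value on states sets the mean change against its variation between lines. The sources used here give neither the method of knockdown nor how TICs were obtained.

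Notch signalling passes between touching cells. A JAG or DLL ligand on the neighbouring cell pulls on the receptor, ADAM proteases and then gamma-secretase cut it, and the freed intracellular domain joins the DNA-binding protein RBPJ and Mastermind to switch on HES and HEY genes. HES and HEY proteins are transcriptional repressors, and NRARP is a target whose product dampens the signal in turn. In the airway, Notch signalling steers the choice between secretory and ciliated cell fates, and mutations that disable Notch receptors occur in squamous carcinomas.

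The promoters of HES1 and HES4 are shown because they hold the RBPJ core, and that of NOTCH3 because PRKCI and ELF3 are reported to act on this gene. Each is the 250 bases before the gene's start, written 5′ to 3′ along the gene's strand, from RefSeq on build GRCh38.p14, and capitals mark the RBPJ core TGGGAA.
HES1, chr3:194135898-194136147, plus strand: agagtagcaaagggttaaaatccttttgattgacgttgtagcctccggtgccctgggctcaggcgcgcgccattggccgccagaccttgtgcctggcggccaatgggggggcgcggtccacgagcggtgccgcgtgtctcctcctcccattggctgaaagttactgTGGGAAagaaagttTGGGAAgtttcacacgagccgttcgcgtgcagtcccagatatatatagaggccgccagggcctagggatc
HES4, chr1:1000098-1000347, minus strand: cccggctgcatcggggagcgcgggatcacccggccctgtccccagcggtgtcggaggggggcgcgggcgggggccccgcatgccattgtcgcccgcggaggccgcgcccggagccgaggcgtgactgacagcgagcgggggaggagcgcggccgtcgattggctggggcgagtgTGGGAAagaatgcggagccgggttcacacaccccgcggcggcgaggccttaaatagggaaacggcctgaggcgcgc
NOTCH3, chr19:15200996-15201245, minus strand: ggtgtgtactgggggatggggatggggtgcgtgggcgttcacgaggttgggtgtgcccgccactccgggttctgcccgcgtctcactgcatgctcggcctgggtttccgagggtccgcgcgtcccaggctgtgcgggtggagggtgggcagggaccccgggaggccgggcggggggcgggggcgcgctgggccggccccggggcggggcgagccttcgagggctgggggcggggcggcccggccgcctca
Letter strings were searched on both strands, TGGGAA for RBPJ and AGGAAG or CGGAAG for ETS factors, the family of ELF3. The RBPJ core stood in 20.85% of 35116 promoters of the same length and in 2 of the 8 members read, HES1 and HES4 (DLL1 and HEY1 were not read). In HES1 it occurred at −84 and −70, counted from the start, and in HES4 at −76. The ETS core stood in 40.75% of promoters and in 1 of the 8 members, NOTCH2. The NOTCH3 window held neither string, which says only that these letters are not in it.

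Counted reads ran from 21.17 to 36.06 M (M, mega) per library in H1703 and H1299 and from 63.76 to 91.76 M in CHAGO and CALU, so depth went with the line. Of the 22506 genes, 14008 passed a filter on low counts, among them 9 of the 10 members. PRKCI was at 23.2 to 58.1 CPM (reads scaled to the library's TMM-adjusted total) in knockdown TICs, against 199 to 608 CPM in TICs and 261 to 357 CPM in parental cells. The lines are described as squamous. The squamous markers KRT5, KRT14, KRT6A and DSG3 had 0 reads in every H1703 and H1299 library. Of the other squamous markers, TP63 had at most 5 reads in these lines. SOX2 had 1202 reads (38.8 CPM) in H1299 TICs, 311 in parental cells and 138 in knockdown TICs. In H1703, SOX2 had 75 reads in TICs, 27 in knockdown TICs and 0 in parental cells. The 6 squamous markers summed to at most 3.60 CPM in H1703, 38.8 CPM in H1299, 125 CPM in CHAGO and 45.4 CPM in CALU. In CALU, KRT6A, DSG3 and SOX2 had 0 reads in every library. The CALU sum was lowest at 2.75 CPM, and at its highest, in TICs, TP63 made up 45.2 CPM of it. The 4 alveolar and adenocarcinoma markers (NKX2-1, NAPSA, SFTPB and SFTPC) summed to 5.38 to 53.5 CPM in CALU and to at most 1.35 CPM in the other lines. The summed level of 5 epithelial markers was 0.193 to 1.64 CPM in H1703, 23.1 to 28.1 CPM in H1299, 1452 to 1945 CPM in CHAGO and 132 to 354 CPM in CALU. The 5 fibroblast markers summed to 389 to 1464 CPM in CALU and to at most 5.72 CPM in the other lines, while endothelial markers summed to at most 48.0 CPM and leukocyte markers to at most 4.10 CPM in any library. The 4 mesenchymal markers summed to at most 28.9 CPM in CHAGO and to at least 895 CPM in each library of the other lines. The part of these marker differences in the results below was not tested. Fewer cells of a type and less RNA per cell cannot be told apart in these bulk libraries.

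NOTCH2 was the largest share of receptor RNA in each of the 12 libraries, and it was the receptor whose level was higher in both TIC states than in parental cells of all 4 lines. In H1703 it had 399 CPM in knockdown TICs, 477 CPM in TICs and 283 CPM in parental cells. H1299 had 147 CPM in knockdown TICs, 175 CPM in TICs and 86.2 CPM in parental cells. In CHAGO the levels were 142 CPM in knockdown TICs, 108 CPM in TICs and 68.7 CPM in parental cells. CALU, the highest line, had 720 CPM in knockdown TICs, 649 CPM in TICs and 475 CPM in parental cells. Within each line the parental library was the lowest, while the states overlapped when lines were pooled. The log2 fold change of TICs over parental cells was 0.72 (SE 0.17, n = 4 lines) with an adjusted p of 0.197 in edgeR's quasi-likelihood test, which missed the threshold of 0.05. DESeq2 gave an adjusted p of 0.0103 for it, and over all alternatives the adjusted p ran from 0.0103 to 0.9996. For knockdown TICs over parental cells the log2 fold change was 0.73 (SE 0.17) with an adjusted p of 0.196 in edgeR and 0.00975 in DESeq2, the lowest of alternatives that reached 0.9999. Knockdown TICs and TICs differed by 0.01 (SE 0.17, edgeR adjusted p = 0.998), with 2 lines higher and 2 lower. NOTCH2NL, a partial copy of NOTCH2 with which reads may be shared, had a log2 fold change of 0.12 in TICs over parental cells (SE 0.34), so both genes' counts carry that uncertainty.

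Per kilobase of annotated exon, NOTCH2 was 73.3% to 99.1% of the summed level of the 3 receptors, with a median of 97.3% over 12 libraries. NOTCH1 was 0.254% to 8.65% of that sum and NOTCH3 0% to 18.1%. JAG1 was the larger share of the 3 ligands in most libraries, with a median of 82.2% and a range of 0% to 100%.

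**Figure D1:**
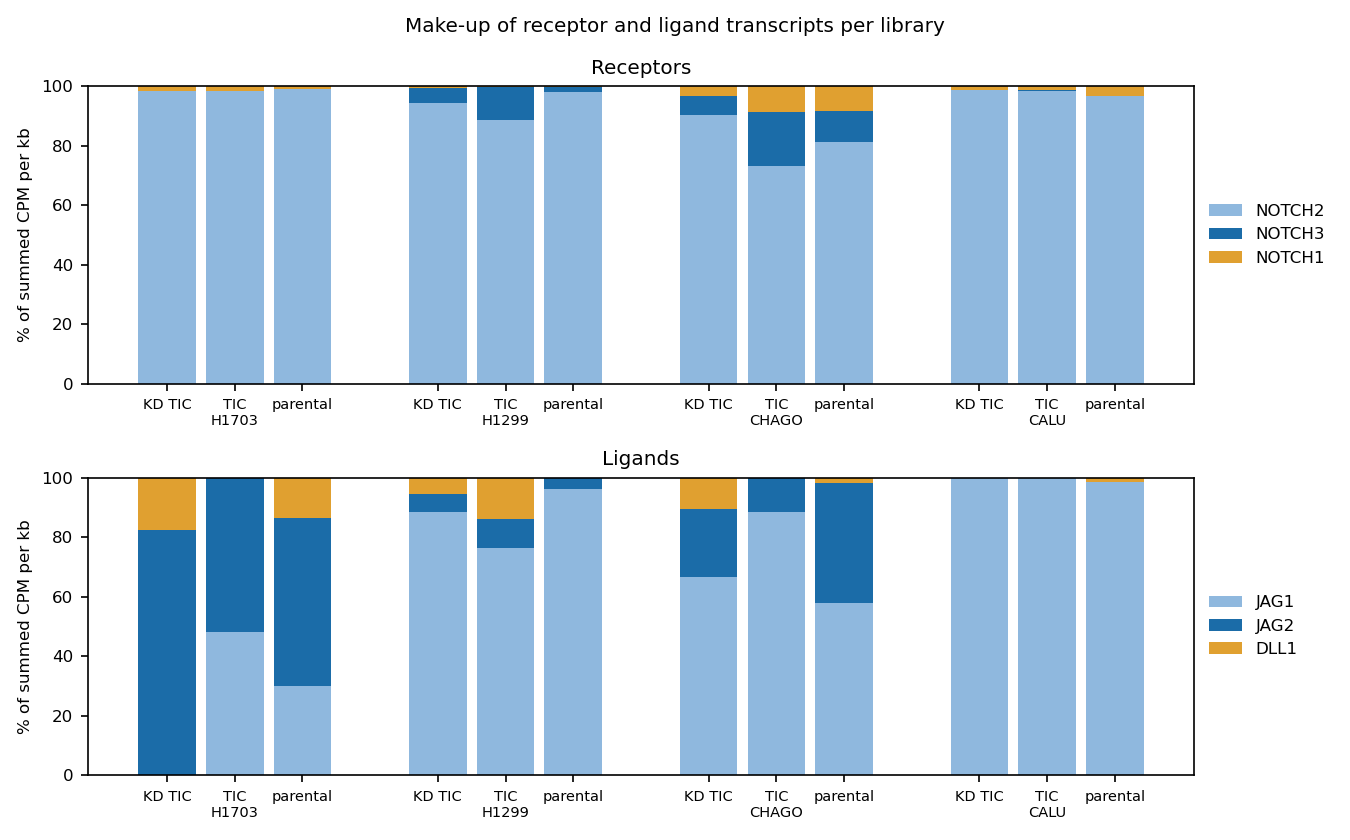
Shares of the summed level per kilobase (CPM per kilobase of exon, in percent) of the 3 receptors and of the 3 ligands in each library, with knockdown TICs left of TICs and parental cells at the right within each line. NOTCH2 is 73.3% to 99.1% of the receptor sum, while the ligand mixture changes with the line, from JAG2 and DLL1 in knockdown TICs of H1703 to JAG1 at 98.4% to 100% in CALU.

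NOTCH1, which is mutated in many squamous carcinomas, was detected in all 12 libraries and did not move one way over the lines. In H1703 it had 3.59 CPM in knockdown TICs, 4.86 CPM in TICs and 1.42 CPM in parental cells. CHAGO had 3.15 CPM in knockdown TICs, 7.35 CPM in TICs and 4.16 CPM in parental cells. In CALU the order was turned round, with 5.48 CPM in knockdown TICs, 5.47 CPM in TICs and 9.29 CPM in parental cells. H1299 was at 0.574 CPM in knockdown TICs, 0.291 CPM in TICs and 0.156 CPM in parental cells, from 13, 9 and 6 reads. The log2 fold change was 0.61 (SE 0.72, edgeR adjusted p = 0.802) for TICs over parental cells and −0.17 (SE 0.73, edgeR adjusted p = 0.996) for knockdown TICs over TICs.

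NOTCH3, the receptor reported downstream of PRKCI and ELF3, was higher in TICs than in both other states in 3 lines and near the limit of detection in the fourth. In H1299 it had 4.33 CPM in knockdown TICs, 11.9 CPM in TICs and 0.858 CPM in parental cells. CHAGO had 5.22 CPM in knockdown TICs, 14.3 CPM in TICs and 4.65 CPM in parental cells. In CALU it had 1 read in knockdown TICs, 78 reads (0.942 CPM) in TICs and 0 reads in parental cells. H1703 had 2 reads in knockdown TICs, 1 in TICs and 2 in parental cells, all under the 3 reads that a count of 0 allows.

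In the lines with reads, the size of the NOTCH3 difference varied. The ratio of knockdown TICs to TICs was 0.365 in H1299 (95% interval 0.289 to 0.457, exact, counting error only) and 0.365 in CHAGO (0.325 to 0.409). In CALU the ratio was 0.0150 (0.000374 to 0.0859), from 1 read against 78. The ratio of TICs to parental cells was 13.8 in H1299 (9.66 to 20.4) and 3.08 in CHAGO (2.71 to 3.50). CALU TICs were 27.2-fold higher, against a floor of 3 reads in the parental library, and the exact 95% limit allowed as little as 21.6-fold. After knockdown the level stayed above that of parental cells in H1299, with a ratio of 5.04 (3.37 to 7.72), and was close to it in CHAGO, with 1.12 (0.965 to 1.31).

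Over the 4 lines the log2 fold change of NOTCH3 in TICs over parental cells was 3.24 (SE 1.397, n = 4) with an unadjusted p of 0.0425 and an adjusted p of 0.400 in edgeR's quasi-likelihood test. The adjusted p was 0.0732 in DESeq2 and ran up to 0.9996 over the alternatives. For knockdown TICs over TICs it was −2.33 (SE 1.30) with an edgeR adjusted p of 0.980. The contrast of knockdown TICs with parental cells gave 0.91 (SE 1.23, edgeR adjusted p = 0.846). Both differences that involve TICs missed the threshold, and they share the 4 TIC libraries. Their size rests on CALU: without that line they were 1.87 and −1.08. CALU parental cells had 0 reads and CALU knockdown TICs 1 read. DESeq2 gave 3.36 and −2.41 for the same differences.

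ELF3, an ETS-family transcription factor of epithelial cells, was not detected in the lines H1703 and H1299, with 0 reads in all 6 libraries. CHAGO had 21.0 CPM of ELF3 in knockdown TICs, 26.9 CPM in TICs and 25.2 CPM in parental cells, and CALU had 0.930 CPM in knockdown TICs, 5.46 CPM in TICs and 0.0693 CPM in parental cells. In H1299 TICs, NOTCH3 was at 11.9 CPM in a library with 0 reads of ELF3. In CALU, NOTCH3 and ELF3 were both highest in TICs. In CHAGO the ELF3 level of the 3 states lay within 21.0 to 26.9 CPM. NOTCH3 in CHAGO TICs was 2.74 times the level of knockdown TICs and 3.08 times that of parental cells. Any link between ELF3 and NOTCH3 was not tested.

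**Figure D2:**
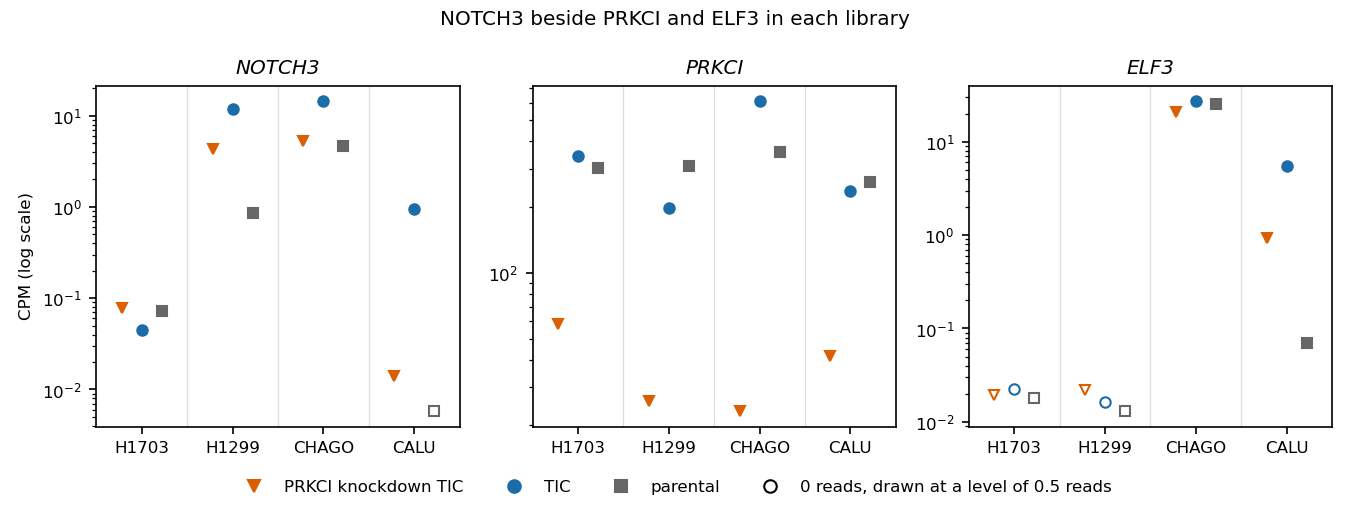
Levels of NOTCH3, PRKCI and ELF3 (CPM, log scale) in each library by line, with knockdown TICs as triangles, TICs as circles and parental cells as squares; open markers stand for 0 reads and are drawn at a level of 0.5 reads. NOTCH3 is highest in TICs of H1299, CHAGO and CALU, PRKCI is lowest in each knockdown library, and ELF3 has 0 reads in every H1703 and H1299 library.

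JAG1 was the most abundant of the 3 ligands per kilobase in every library of H1299, CHAGO and CALU, and in these lines it was higher in TICs than in parental cells. In H1703, JAG2 was the larger of them in all 3 libraries. JAG1 in CALU was at 59.9 CPM in knockdown TICs, 119 CPM in TICs and 49.1 CPM in parental cells. For JAG1, H1299 had 17.4 CPM in knockdown TICs, 17.2 CPM in TICs and 8.63 CPM in parental cells. CHAGO had 11.5 CPM of JAG1 in knockdown TICs, 11.1 CPM in TICs and 3.32 CPM in parental cells. H1703 had 0 reads of JAG1 in knockdown TICs, against 36 reads (1.62 CPM) in TICs and 65 reads (2.36 CPM) in parental cells. With the 0 set at the floor of 3 reads, the H1703 knockdown level was 13.99-fold lower than in TICs and 20.4-fold lower than in parental cells. The exact 95% limits allowed as little as 10.8-fold and 16.1-fold. Over the lines the log2 fold change of JAG1 was 0.69 for TICs over parental cells (SE 0.89, edgeR adjusted p = 0.824) and −0.62 for knockdown TICs over TICs (SE 0.87, edgeR adjusted p = 0.983). In the second comparison the lines other than H1703 gave ratios of 1.01 in H1299, 1.04 in CHAGO and 0.504 in CALU.

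JAG2 and DLL1, the remaining ligands, had few reads. JAG2 had 0 reads in all 3 CALU libraries, and between 13 and 294 reads elsewhere. Its level was 3.89 CPM in knockdown TICs, 1.44 CPM in TICs and 2.27 CPM in parental cells of CHAGO, while in H1299 it was 1.15 CPM in knockdown TICs, 2.20 CPM in TICs and 0.338 CPM in parental cells. DLL1 was detected in 7 of 12 libraries with 203 reads in all, of which 52 were in H1299 TICs and 75 in CHAGO knockdown TICs. Neither ligand had a direction shared by the lines, and the log2 fold change of JAG2 was 0.10 (SE 1.17, edgeR adjusted p = 0.988) for TICs over parental cells. For DLL1 it was −3.64 (SE 3.62, edgeR adjusted p = 0.754), with 0 reads in 3 of the TIC libraries, and DESeq2 gave −6.26. The edgeR value ran from −7.935 without H1299 to −0.40 without CALU.

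HES1, the repressor that most often serves as a readout of Notch activity, was detected in all 12 libraries, and its states were ordered differently in each line. H1703 had 5.56 CPM in knockdown TICs, 3.06 CPM in TICs and 25.5 CPM in parental cells. H1299 had 5.69 CPM in knockdown TICs, 3.13 CPM in TICs and 2.05 CPM in parental cells. CHAGO had 7.995 CPM in knockdown TICs, 11.6 CPM in TICs and 2.82 CPM in parental cells, and CALU had 3.34 CPM in knockdown TICs, 0.688 CPM in TICs and 1.36 CPM in parental cells. In 3 lines the knockdown library was above the TIC library, with ratios of 1.82 in H1703, 1.82 in H1299 and 4.85 in CALU (95% interval 3.62 to 6.60), while CHAGO had 0.692 (0.623 to 0.767). The log2 fold change of knockdown TICs over TICs was 0.77 (SE 0.88, edgeR adjusted p = 0.981), and that of TICs over parental cells −0.43 (SE 0.97, edgeR adjusted p = 0.908). The difference between knockdown TICs and TICs was 0.24 without CALU and 1.41 without CHAGO. CALU TICs had the most NOTCH3 reads of their line and the fewest HES1 reads, at 57, against 237 in knockdown TICs and 118 in parental cells. Pearson's r between them, after the mean of each line was removed, was −0.107 over the 12 libraries, which share lines and depths.

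HEY1, a repressor of the HEY branch, had 0 reads in each H1703 library. CHAGO had 8.55 CPM in knockdown TICs, 2.40 CPM in TICs and 2.22 CPM in parental cells. H1299 had 27.2 CPM in knockdown TICs, 15.0 CPM in TICs and 27.2 CPM in parental cells. CALU had 1.07 CPM in knockdown TICs, 3.59 CPM (297 reads) in TICs and 0 reads in parental cells. Against the floor of 3 reads, CALU TICs were 103.5-fold higher than parental cells, and the exact 95% limit allowed as little as 83.7-fold. The 3 lines with reads therefore had 3 different orders of states. Over the lines the log2 fold change was 1.49 for TICs over parental cells (SE 1.80, edgeR adjusted p = 0.809). This value was fitted with 0 reads in CALU parental cells and in each H1703 library, and DESeq2 gave 1.35. After the line means were removed, HEY1 had the highest correlation with NOTCH3 among members, with r = 0.531 over 12 libraries that share lines and depths. The genes shared their highest state in CALU alone, where both had 0 reads in parental cells. In H1299, HEY1 was lowest in TICs, where NOTCH3 was highest. In CHAGO, HEY1 was highest in knockdown TICs and NOTCH3 in TICs.

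NRARP, whose product feeds back on the Notch complex, was lower in TICs than in parental cells of 3 lines. In H1299 it had 0 reads in knockdown TICs, 3 reads in TICs and 140 reads (3.64 CPM) in parental cells. CALU had 1 read in knockdown TICs, 11 reads in TICs and 127 reads (1.47 CPM) in parental cells. CHAGO had 11.5 CPM in knockdown TICs, 6.99 CPM in TICs and 13.2 CPM in parental cells, and H1703 had 50.8 CPM in knockdown TICs, 15.1 CPM in TICs and 7.60 CPM in parental cells. H1703 thus went the other way, with a ratio of TICs to parental cells of 1.98 (95% interval 1.66 to 2.37), against 0.0266 in H1299 (0.00542 to 0.0794), 0.529 in CHAGO (0.475 to 0.588) and 0.0906 in CALU (0.0441 to 0.168). Over the lines the log2 fold change of TICs over parental cells was −3.13 (SE 1.48) with an unadjusted p of 0.0604 and an adjusted p of 0.454 in edgeR, and the adjusted p was 0.0879 in DESeq2 and up to 0.9996 over the alternatives. Without H1299 this log2 fold change was −1.76. HES4, a HES repressor, had 8 reads in all, of which 1 was in H1299 knockdown TICs, 3 in CHAGO knockdown TICs and 4 in CHAGO TICs, so it was not tested and no difference was detectable at this depth.

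**Figure D3:**
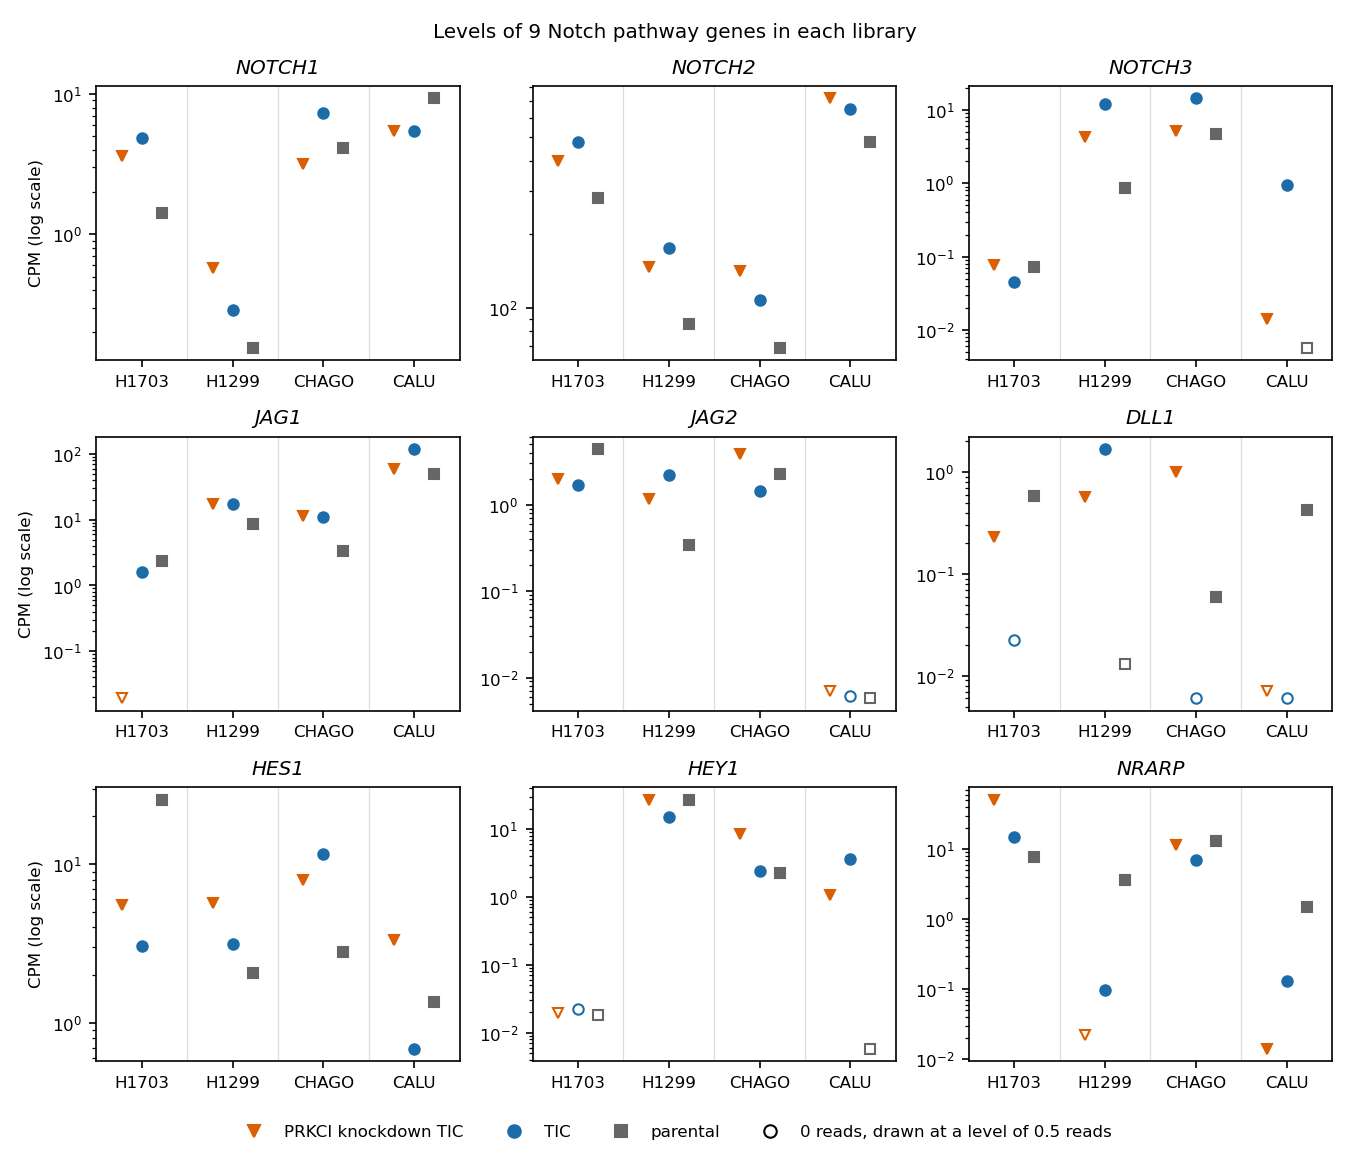
Level of the 9 tested members (CPM, log scale) in each library by line, with knockdown TICs as triangles, TICs as circles and parental cells as squares; open markers stand for 0 reads and are drawn at a level of 0.5 reads. NOTCH2 lies between 68.7 and 720 CPM with the parental library lowest in each line, whereas the order of states for HES1, HEY1 and NRARP is not the same in all lines.

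Set against all genes, 0 of the 9 tested members passed an adjusted p of 0.05 in edgeR for TICs over parental cells, where 0.0286% of the 14008 tested genes did. At an unadjusted p under 0.05 it was 2 of 9, NOTCH2 and NOTCH3, both higher, where 11.8% of genes passed and 5.73% passed as higher. DESeq2 called 1 member, NOTCH2, where it called 4.02% of its tested genes. After knockdown, TICs set against TICs gave 0 of 9 passes in edgeR, where 0.0143% of genes did, and 0 of 9 passed at an unadjusted p under 0.05, where 4.28% did, nor did DESeq2 call any member there, where it called 0.0785%. Knockdown TICs set against parental cells gave 0 of 9 passes in edgeR, where 0.0357% of genes did, and 1 passed at an unadjusted p under 0.05, NOTCH2, where 10.7% did. DESeq2 called NOTCH2 there too, where it called 3.06% of its tested genes. limma voom called 0 members in TICs over parental cells, knockdown TICs over TICs and knockdown TICs over parental cells, where it called 0.0714%, 0.00714% and 0.0428% of genes, in that order. The median log2 fold change of the 9 members was 0.61 for TICs over parental cells, 0.01 for knockdown TICs over TICs and 0.34 for knockdown TICs over parental cells, beside −0.02, −0.01 and −0.05 for all tested genes.

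**Figure D4:**
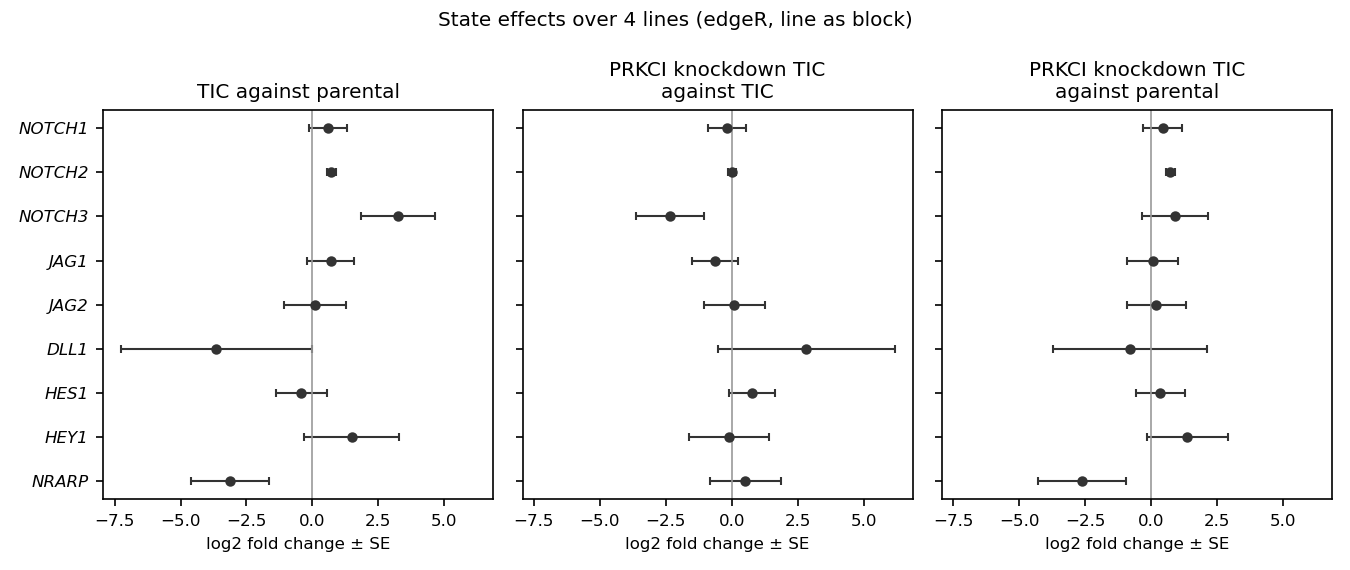
Log2 fold changes of the 9 tested members from the edgeR fit, with standard errors, for TICs over parental cells, knockdown TICs over TICs and knockdown TICs over parental cells. NOTCH2 has the smallest error, at 0.72 ± 0.17 in TICs over parental cells, and the error bars of NOTCH3, JAG2, DLL1, HEY1 and NRARP span more than 2 log2 units.

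More members passed a test between lines than between states. In the F test of the line terms of the same fit, the 3 states serve as replicates of a line. With 1 library per line and state, that test is about these libraries only. In it 7 of the 9 members passed an adjusted p of 0.05, where 45.4% of tested genes passed. They were NOTCH1 (edgeR adjusted p = 0.0193), NOTCH2 (4.55e-05), NOTCH3 (0.0120), JAG1 (0.0105), JAG2 (0.0110), HEY1 (0.0181) and NRARP (0.0303), while HES1 (0.160) and DLL1 (0.668) did not pass. Without CALU, 4 members passed, NOTCH1, NOTCH2, NOTCH3 and HEY1, where 4796 of 13743 tested genes passed. Depth followed the line, and between lines of like depth 3 members passed. In H1703 against H1299 they were NOTCH2, NOTCH3 and HEY1, where 2053 of 13414 tested genes passed. In CHAGO against CALU they were NOTCH2, NOTCH3 and JAG1, where 2603 of 14919 tested genes passed. The levels of NOTCH2 ran from CALU (475 to 720 CPM) and H1703 (283 to 477 CPM), whose ranges met, to H1299 (86.2 to 175 CPM) and CHAGO (68.7 to 142 CPM), whose ranges overlapped. JAG1 ran from CALU (49.1 to 119 CPM) through H1299 (8.63 to 17.4 CPM) and CHAGO (3.32 to 11.5 CPM), which overlapped, to H1703 (0 to 2.36 CPM). NOTCH3 was highest in CHAGO (4.65 to 14.3 CPM) and H1299 (0.858 to 11.9 CPM), which overlapped, and lowest in CALU (0 to 0.942 CPM) and H1703 (0.0450 to 0.0772 CPM). The CALU range overlapped that of H1703 and the low end of H1299. HEY1 was highest in H1299 (15.0 to 27.2 CPM), followed by CHAGO (2.22 to 8.55 CPM) and CALU (0 to 3.59 CPM), which overlapped.

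The wider pathway was described with 66 other genes, of which 56 were tested. None passed in edgeR in any state comparison, while 32 of 56 passed between lines, where 45.4% of all genes did. For TICs over parental cells 34 were higher, 22 were lower and the median log2 fold change was 0.12, and 7 had an unadjusted p under 0.05, all higher, where 5.73% of genes passed as higher. DESeq2 called 3, where it called 4.02% of its tested genes. By role, 6 of 9 genes of receptor cleavage were higher (median 0.34), as were 10 of 12 ubiquitin ligases and endocytic regulators (median 0.30) and 9 of 16 genes of the nuclear complex and its co-repressors (median 0.15). In the same comparison 6 of 11 other HES and HEY genes and targets were higher (median 0.04), 2 of 4 other receptors and ligands (median 0.03) and 1 of 4 genes of receptor glycosylation (median −0.08). Over all tested genes 6828 of 14008 were higher (median −0.02), and these counts by role were not tested. The lowest p belonged to CDKN1A, the cell-cycle inhibitor p21, at 2.43 (SE 0.49, edgeR adjusted p = 0.159), and to FURIN, the protease that cuts Notch receptors on their way to the surface, at 1.81 (SE 0.46, edgeR adjusted p = 0.206), both higher in 4 of 4 lines. FURIN was at 14.4 to 22.5 CPM in TICs and 3.38 to 8.84 CPM in parental cells, ranges that did not overlap. Between knockdown TICs and TICs, 25 were higher and 31 lower with a median of −0.11, and RBPJ alone had an unadjusted p under 0.05, where 2.2% of genes passed as lower, and DESeq2 called 0. RBPJ, the DNA-binding partner of all Notch receptors, had a log2 fold change of −0.40 (SE 0.18, edgeR adjusted p = 0.980) and was lower in 4 of 4 lines, for example 302.9 CPM in knockdown TICs and 401 CPM in TICs of CALU. CDKN1A had 0.99 (SE 0.48, edgeR adjusted p = 0.980) in the same comparison. Against parental cells, 34 of the 56 were higher and 22 lower in knockdown TICs, with a median of 0.16, 6 had an unadjusted p under 0.05, all higher, where 5.45% of genes passed as higher, and DESeq2 called 4, where it called 3.06% of its tested genes. CDKN1A led again at 3.41 (SE 0.51, edgeR adjusted p = 0.0860) and was higher in 4 of 4 lines.

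The genes most like NOTCH3 were sought among 10202 well-expressed genes by Pearson's r over 12 libraries after line means were removed. They included GNAS (0.946), FBXO46 (0.935), SERPINA1 (0.931) and FLJ22184 (0.928). Those most like HES1 were GPBP1 (0.913), PLEKHB2 (0.912), IL18R1 (0.906), SENP1 (0.878) and ARFGEF1 (0.869). With 10202 candidates and 12 libraries these are descriptions of likeness.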

How the data were processed

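RNA-seq counts were analysed for 12 libraries: PRKCI knockdown TICs, TICs and parental cells of 4 human lung cancer cell lines. RNA was extracted with a Qiagen kit and libraries were made with NuGEN reagents, per the labels' protocols. CASAVA 1.4, TopHat 1.4, HTSeq 0.5.3p3 and hg19 are named, with no role given, per the submitters' processing notes; whether counting used strand is not given in the sources used here. The authors deposited whole read counts per gene, and a second table of mode-normalized values, which is a score: each raw count multiplied by a factor of its library and rounded. Parental cells with PRKCI knockdown were not analysed here.

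In R 4.3.3, genes were filtered with edgeR 4.0.16 (filterByExpr, minimum count 10), which left 14008 of 22506; 4044 had no read. Scaling was by TMM, and the quasi-likelihood model (robust) had terms for state and line, on 12 libraries with 6 residual degrees of freedom. Tests were two-sided, and p-values were adjusted by Benjamini-Hochberg over the 14008 genes, with a threshold of 0.05. The biological coefficient of variation was 0.699. The standard error of a log2 fold change is its size divided by the root of F. An exact paired permutation test over 4 lines cannot go below p = 0.125, so none was used. Log2 CPM used a prior count of 2, and counts of 0 a floor of 3 reads. Ratios carry exact 95% intervals that cover counting error only. Exon lengths came from GENCODE on GRCh38, since the authors' annotation is not given in the sources used here.

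The labels name the line of each library, which pairs the libraries: those of the same line deviated together with r of 0.560 to 0.756 (12 pairs), against −0.404 to −0.0217 between lines (36 pairs). The column name for CALU knockdown TICs lacks a letter of the sample's title, and across genes its r was 0.914 with TICs of CALU but no more than 0.745 with any other line. Members, lists and tests were chosen with earlier results of these data known. Of 118 list symbols, 117 matched as written and 1 by a synonym. The 10 members are always named; from the wider pathway the rule names any gene called and the 2 with the smallest p per comparison, and the 5 genes most like NOTCH3 and like HES1, sought among genes whose log2 CPM averaged 2 or more. Not every gene that the rule takes is reported here. Markers are shown for context.

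Alternatives were other scalings (DESeq2 size factors, library totals, the mode-normalized values), other filters, no replicate block, each line left out, pairs of lines of like depth, only the compared states, DESeq2 1.42.0, limma 3.58.1 voom and an adjusted p of 0.10.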

Additional observations from a re-analysis of the deposited data

Results flagged for a closer look

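In 54 groups of 4 libraries or line differences that were looked at, chance alone would set about 1 in 20 apart, and 4 held a library farther from the rest than Dixon's 95% criterion allows. NOTCH1 in TICs was at a log2 CPM of −1.49 in H1299, against 2.31 to 2.88 in the other 3 lines. JAG2 in TICs was at −5.37 in CALU, a library with 0 reads of it, against 0.55 to 1.18 in the other lines. The HES1 log2 difference of knockdown TICs over parental cells was −2.18 in H1703, against 1.28 to 1.49 in H1299, CHAGO and CALU. The HEY1 log2 difference of TICs over parental cells was 7.29 in CALU, where the parental library had 0 reads, against −0.85 to 0.31 in the other lines. The 0.31 belongs to H1703, which had 0 reads of HEY1 in both states, so it comes from the prior count alone and this comparison rests on 3 lines with reads. With 1 library per line and state, no test of a difference between lines in their response was possible.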

How the results depend on the processing

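Of 428 member values under alternatives, 366 kept their direction and side of the threshold, 60 took the other direction, none of these past the threshold, and 2 passed it: NOTCH2 in DESeq2, at 0.76 for TICs over parental cells and 0.77 for knockdown TICs over parental cells. DESeq2 thus called 1 member in each of these comparisons, against 0 in edgeR. Between lines 7 members passed, with 4 to 7 when a line was left out, 3 with H1703 and H1299 only and 3 with CHAGO and CALU only. The number of all genes that passed fell too, from 6359 to between 4351 and 5595 when a line was left out. It was 2053 with H1703 and H1299 only and 2603 with CHAGO and CALU only. The median of all genes for TICs over parental cells was 0.11 with the mode-normalized values, against −0.02 with TMM. NOTCH2 and NOTCH3 kept their direction over parental cells in both TIC states, as NOTCH3 did for knockdown TICs over TICs. The causes were not tested. With 8 reads of HES4 in all, no difference in it could be detected.

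Without the replicate block no member passed in edgeR in any state comparison. For TICs over parental cells it gave JAG2 −0.39, DLL1 0.64 and HEY1 −0.48. Knockdown TICs over TICs gave NOTCH2 −0.001 and HEY1 0.81. Knockdown TICs over parental cells gave NOTCH1 −0.23, DLL1 0.75, HES1 −0.49 and NRARP 1.26. Over all genes, 0 passed without the block in each comparison, against 4, 2 and 5 with it, for TICs over parental cells, knockdown TICs over TICs and knockdown TICs over parental cells.

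The other reversed values are log2 fold changes. For TICs over parental cells, H1703 and H1299 alone gave JAG1 −0.093, DLL1 0.51 and HEY1 −0.79, CHAGO and CALU alone JAG2 −0.58 and HES1 0.77, and voom JAG2 −0.15 and HES1 0.06. For knockdown TICs over TICs, H1703 and H1299 alone gave NOTCH1 0.23, NOTCH2 −0.25, JAG2 −0.57, DLL1 −0.67 and HEY1 0.81, CHAGO and CALU alone NRARP −0.11, and library totals NOTCH2 −0.015. The compared states alone gave HEY1 0.39 and NRARP −0.099, voom HEY1 0.97, and the mode-normalized values NOTCH2 −0.059, HEY1 0.18 and NRARP −0.07. For knockdown TICs over parental cells, H1703 and H1299 alone gave JAG1 −1.375, JAG2 −0.12 and HES1 −0.76, CHAGO and CALU alone NOTCH1 −0.61, and library totals JAG1 −0.009. Voom gave NOTCH1 −0.20, DLL1 1.25 and NRARP 0.21, the mode-normalized values JAG1 −0.48 and DLL1 0.57, and the compared states alone DLL1 0.99.

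With each line left out in turn, TICs over parental cells ranged from −0.97 to 1.03 for JAG2, −1.36 to 0.70 for HES1 and −0.45 to 3.74 for HEY1, and from 0.23 to 1.15 for NOTCH1, 0.41 to 1.31 for JAG1 and −7.935 to −0.40 for DLL1. Knockdown TICs over TICs ranged from −0.57 to 0.18 for NOTCH1, −0.12 to 0.12 for NOTCH2, −0.51 to 0.86 for JAG2, −1.07 to 1.402 for HEY1 and −0.72 to 1.09 for NRARP, and from 0.24 to 1.41 for HES1 and −0.995 to −0.27 for JAG1. Knockdown TICs over parental cells ranged from −0.03 to 0.97 for NOTCH1, −0.59 to 1.04 for JAG1, −0.115 to 1.015 for JAG2, −2.895 to 1.62 for DLL1 and −0.099 to 1.399 for HES1.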

Other observations

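Other ligand and target genes of the pathway, chosen after their values were seen, varied between lines too. DLL3, an atypical ligand that acts on receptors within the same cell, had 0 reads in all 3 CALU libraries. In H1299 DLL3 was at 7.19 CPM in knockdown TICs, 10.1 CPM in TICs and 8.63 CPM in parental cells. DLL4, a ligand best known from endothelial cells, had reads in CHAGO alone, with 68 in knockdown TICs, 2 in TICs and 1 in parental cells. HES7, the oscillating repressor of the segmentation clock, stayed between 11.2 and 11.5 CPM in the 3 H1299 libraries. In CHAGO the same gene HES7 had 469 reads in knockdown TICs, 4 in TICs and 20 in parental cells, and in H1703 it had 0 reads in knockdown TICs, 129 in TICs and 3 in parental cells. HES7 in CALU had 0 reads in knockdown TICs, 18 in TICs and 8 in parental cells. HEYL, a further HEY repressor, had 0 reads in all H1703 and CALU libraries. In CHAGO it had 179 reads in knockdown TICs, 338 in TICs and 58 in parental cells, while HEYL in H1299 had 12 reads in knockdown TICs, 86 in TICs and 221 in parental cells.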
